A study of Mus musculus with 6 samples.

Results

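The tuft cell genes described here were 7 genes chosen by name: Dclk1, Avil, Trpm5, Gfi1b, Pou2f3, Alox5 and Il25. They were represented by every probe set whose platform annotation named exactly 1 gene and that gene was a member, dim probe sets included. This gave 12 of the 22690 probe sets on the array, for 6 of the 7 genes. Dclk1 had 6 probe sets, Trpm5 had 2, and Avil, Gfi1b, Pou2f3 and Il25 had 1 each. No probe set carried the symbol Alox5 alone in the annotation used, so that gene was not analysed here.

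The samples were 3 duodenal and 3 cecal tumors from 6 mice, 1 tumor a mouse, hybridised to 1 Affymetrix array each. All mice were Rb1 deficient and carried Apc1638N, a mutant Apc allele under which intestinal tumors form, so this background was common to both groups. The sources used here do not give the age, sex or strain of the mice, or how Rb1 was removed. The labels allow pyloric tumor tissue among the duodenal samples, and no normal mucosa was analysed.

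Tuft cells are rare chemosensory cells of the gut epithelium that carry a tuft of long microvilli at their tip. They detect luminal signals such as succinate from parasites and microbes through a taste-like cascade that ends in the opening of the cation channel Trpm5, and they release the cytokine encoded by Il25, cysteinyl leukotrienes and acetylcholine. The released cytokine acts on innate lymphoid cells, whose type 2 cytokines in turn raise the numbers of goblet and tuft cells. Dclk1 has also been used to mark tumor-initiating cells in intestinal tumors of Apc mutant mice.

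The members divided sharply by signal. Avil was bright and higher in duodenal tumors, 1 Dclk1 probe set lay near the lower limit for testing, and the other 10 member probe sets were dim in every tumor. An intensity was called dim when it did not exceed its array's 40th percentile, which ran from 92.4 to 100.6 over the 6 arrays, and a probe set was tested when it exceeded that level on at least 3 arrays. Of the 2 tested member probe sets, 1 passed limma's test at an adjusted p of 0.05, against 9.3% of all 13866 tested probe sets (4.07% higher and 5.24% lower in duodenal tumors). Every log2 difference below is duodenal minus cecal on the log2(intensity + 16) scale, and an intensity of 1 probe set is not comparable with that of another.

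**Figure D1:**
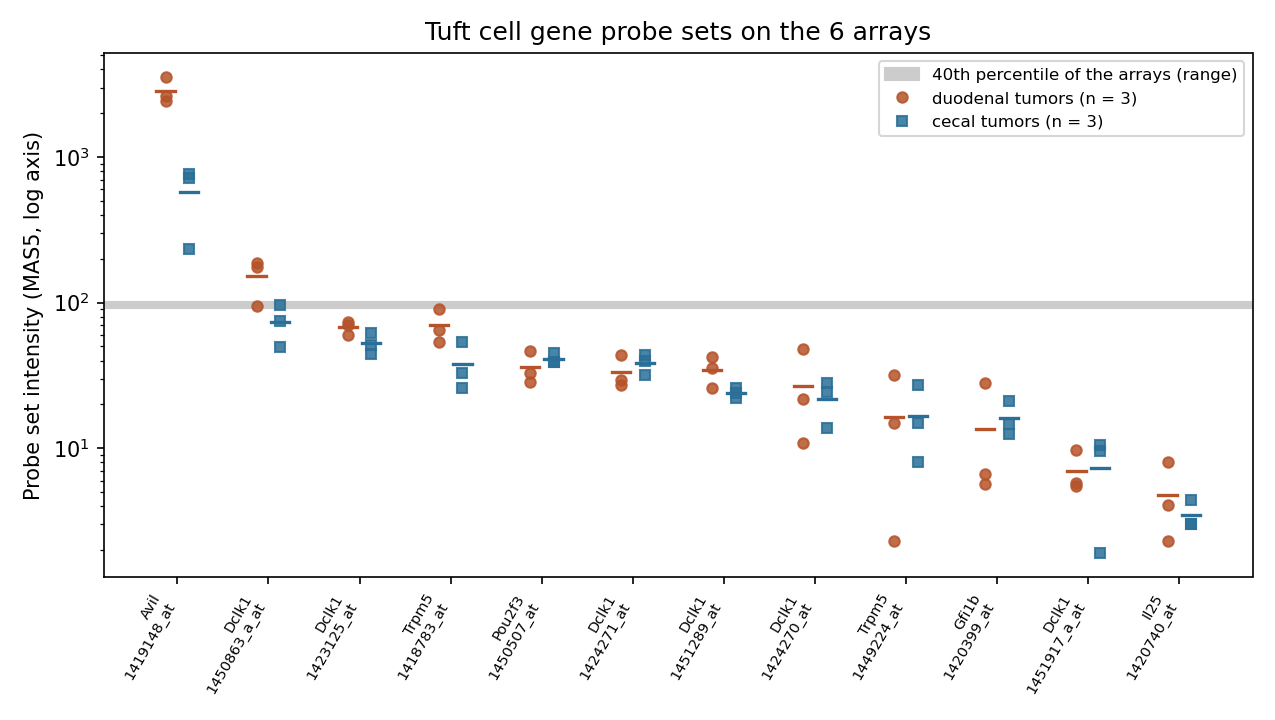
Intensity (log axis) of the 12 member probe sets in duodenal (circles) and cecal (squares) tumors, with a bar at each group's mean (n = 3) and a grey band for the range of the arrays' 40th percentiles. Avil lies above the band on all 6 arrays, the Dclk1 probe set 1450863_a_at straddles it, and the other 10 probe sets lie below it.

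The upstream sequences of Avil and Dclk1 are shown because these were the members with a testable signal, and because Pou2f3, a POU homeodomain factor, is required for tuft cells to form. Each is the 250 bases before a transcription start in RefSeq (GRCm38.p6, plus strand): chr10:127000459-127000708 for Avil, and chr3:55242114-55242363 and chr3:55461478-55461727 for the upstream and the downstream start of Dclk1. Capitals mark ATGCAAA or its reverse complement TTTGCAT, the first 7 letters of the octamer ATGCAAAT that POU factors are known to bind; this shorter form was chosen after the Avil sequence had been seen.
Avil: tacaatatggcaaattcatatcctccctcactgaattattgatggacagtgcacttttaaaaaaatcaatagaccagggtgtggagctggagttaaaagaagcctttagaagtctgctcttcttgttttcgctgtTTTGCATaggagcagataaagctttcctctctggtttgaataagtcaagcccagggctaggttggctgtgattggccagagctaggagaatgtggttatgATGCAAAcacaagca
Dclk1 upstream start: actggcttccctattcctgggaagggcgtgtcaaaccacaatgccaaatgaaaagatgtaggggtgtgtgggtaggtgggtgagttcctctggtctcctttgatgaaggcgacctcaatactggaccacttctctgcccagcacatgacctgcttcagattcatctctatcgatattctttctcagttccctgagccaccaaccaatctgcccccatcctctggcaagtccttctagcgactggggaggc
Dclk1 downstream start: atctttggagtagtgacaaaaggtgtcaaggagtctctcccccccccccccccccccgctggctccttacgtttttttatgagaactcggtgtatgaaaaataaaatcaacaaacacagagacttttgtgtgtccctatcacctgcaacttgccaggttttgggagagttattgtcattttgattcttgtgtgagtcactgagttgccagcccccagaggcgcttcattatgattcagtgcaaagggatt

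The Avil window held 2 matches to the shorter form, 1 on each strand, starting 115 and 15 bases before the transcription start. At least 1 match was present in 4.12% of the 32851 windows of this length in the table, and 2 or more in 0.247%. Windows were found for 5 of the 7 members, 6 windows in all, and the other 5 windows (Dclk1 with 2, Trpm5, Gfi1b and Alox5) held none. The full octamer, present in 1.6% of all windows, was in 0 of the 6. The shorter form was chosen with the Avil sequence in view, so the shares of windows do not test the Avil matches. These matches describe letters in the windows only.

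The lineage factors Pou2f3 and Gfi1b gave no signal above the dim level at either site. Pou2f3 had intensities of 32.9, 28.4 and 46.3 in duodenal tumors 1, 2 and 3 and of 38.8, 38.9 and 44.9 in cecal tumors 1, 2 and 3. The highest and the lowest value were both in duodenal tumors, and the groups overlapped. Gfi1b, a zinc finger repressor that is also active in red cell and platelet precursors, had 6.7, 5.7 and 28.2 in duodenal against 12.5, 14.6 and 21.1 in cecal tumors. Its cecal values lay inside the duodenal range. Neither probe set gives more than an upper bound on its transcript, so no fold is given for them.

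Avil encodes advillin, an actin-binding protein of the villin family that is concentrated in tuft cells and is also made by sensory neurons. Its probe set 1419148_at had intensities of 2619.6, 2409.7 and 3556.4 in duodenal tumors and of 233.2, 720.9 and 767.1 in cecal tumors. All 3 duodenal tumors lay above all 3 cecal tumors, and cecal tumor 1 was the lowest of the 6. The group means were 2862 ± 611 (SD, n = 3) and 574 ± 296 (SD, n = 3). The log2 difference was 2.44 ± 0.41 (SE), with a 95% interval of 1.50 to 3.37, a 5.42-fold difference on the offset scale (limma adjusted p = 0.00869). In bulk tumor RNA, fewer cells that make a transcript and less of it per cell cannot be told apart. The call held under all 15 alternatives, with log2 differences from 1.90 to 2.73 and adjusted p from 0.0026 to 0.0345.

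Gastric surface markers separated the same tumors as Avil. The summed intensity of 6 gastric surface genes was 56221 to 80640 in duodenal against 1156 to 2013 in cecal tumors, and all 6 passed the test as higher in duodenal tumors, a direction that for 4 of them follows from the filter. Gkn1, secreted by the gastric surface epithelium, was at least 145-fold higher there, with the cecal tumors, all dim for it, taken at their 40th percentile. A second tested probe set of Ctse, another of the 6 genes, did not pass (log2 difference 0.73, limma adjusted p = 0.534). Of 8 neural markers on the array, Tubb3, Elavl4, Uchl1, Stmn2, Prph and Ret were dim on all 6 arrays. S100b, a calcium-binding protein known from glia, was the neural marker that was tested. It had 119.8, 161.9 and 223.5 in duodenal against 20.9, 21.2 and 14.6 in cecal tumors and exceeded the cecal level at least 1.70-fold (limma adjusted p = 0.00138), a direction that follows from the filter, since all cecal tumors were dim for it. The summed neural list was 439.4 to 527.6 in duodenal against 238.6 to 270.8 in cecal tumors, a sum of S100b and of values at or near the dim level. Among the dim genes Prph had all duodenal values above all cecal values, with 51.9, 72.7 and 28.9 against 9.3, 14.4 and 7.2. Stmn2 had the opposite order, with 36.1, 16.7 and 17.0 in duodenal against 78.8, 48.3 and 42.3 in cecal tumors. Tubb3, Elavl4, Uchl1 and Ret overlapped between the groups. Snap25, not tested, had 66.8, 28.6 and 102.1 in duodenal against 22.2, 15.0 and 45.2 in cecal tumors, with overlap. The part of gastric tissue or nerve in the Avil difference was not tested.

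Dclk1 encodes a microtubule-associated kinase used as the standard tuft cell marker in mouse gut. Its brightest probe set, 1450863_a_at, had intensities of 187.1, 94.4 and 175.9 in duodenal tumors and of 74.6, 49.5 and 96.2 in cecal tumors. Duodenal tumors 1 and 3 were the highest, while duodenal tumor 2 fell just below cecal tumor 3, so the groups overlapped. The group means were 152.5 ± 50.6 and 73.4 ± 23.4 (SD, n = 3 each). The log2 difference of 0.90 ± 0.30 (SE) had an unadjusted 95% interval of 0.20 to 1.59 and failed the test (limma adjusted p = 0.114). It passed with the replicate number as a block (adjusted p = 0.0329), without duodenal tumor 2 (log2 difference 1.18, adjusted p = 0.0391) and with array weights (1.18, adjusted p = 0.0253). The highest adjusted p over 14 alternatives was 0.301.

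This Dclk1 probe set was tested by a narrow margin. Duodenal tumors 1 and 3 were above their arrays' 40th percentile and the third array that was needed was cecal tumor 3, at 96.2 against a level of 96.1. A second Dclk1 probe set designed on the same sequence record, 1423125_at, had 73.1, 60.4 and 70.2 in duodenal against 44.6, 51.1 and 61.5 in cecal tumors. It was dim throughout, and its groups overlapped because cecal tumor 3 exceeded duodenal tumor 2. The 6 Dclk1 probe sets came from 3 sequence records, so they are not independent measures. The 5 dim ones ranged from 1.9 to 73.1, and of all 6 probe sets 4 had the higher mean in duodenal tumors.

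The brightest enteroendocrine markers, genes of the hormone cells of the gut, were Chgb and Chga. Both were highest in duodenal tumors 1 and 3, as Dclk1 was. Chgb, a granule protein, had 3336.4, 519.2 and 6898.3 in duodenal against 877.0, 559.5 and 1015.2 in cecal tumors, with duodenal tumor 2 the lowest of all 6. Neither Chgb nor Chga passed in the main fit (limma adjusted p = 0.302 and 0.281). Each passed under 1 of 15 alternatives, the fit without duodenal tumor 2 (limma adjusted p = 0.00474 and 0.00362). Chga had 682.6, 116.4 and 1453.3 in duodenal against 187.8, 143.5 and 184.8 in cecal tumors, again with duodenal tumor 2 lowest. The summed list of 8 genes was 4667.6, 967.8 and 9165.0 in duodenal against 846.3 to 1408.8 in cecal tumors. Of its 3 tested genes 1 passed, the endocrine progenitor factor Neurog3. Its duodenal level was at least 2.58-fold higher (limma adjusted p = 0.00329), a direction that follows from the filter. Pax6, Scg3 and Syp were dim on all arrays, and Neurod1 and Isl1 were not tested either. Neurod1 had 137.5, 37.3 and 169.3 in duodenal against 14.9, 14.9 and 47.8 in cecal tumors. Isl1 had 83.5, 38.5 and 132.5 against 10.6, 4.9 and 1.2, and Scg3 had 53.8, 9.8 and 83.2 against 5.9, 4.0 and 8.8. The groups overlapped for Neurod1, Pax6 and Syp, but not for Isl1 and Scg3. Fibroblast and muscle markers summed to 13080 to 16506 in duodenal against 17221 to 21589 in cecal tumors, and of 7 tested genes the collagen gene Col3a1 passed, as lower in duodenal tumors (limma adjusted p = 0.0173, or 0.0646 without duodenal tumor 1 and 0.058 without cecal tumor 1). The part of either cell type in the Dclk1 values was not tested.

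Trpm5, the channel at the end of the sensing cascade, was dim on all 6 arrays by both of its probe sets, which were designed on 1 sequence record. The brighter, 1418783_at, had 65.3, 54.0 and 90.5 in duodenal against 26.1, 33.0 and 53.7 in cecal tumors. All duodenal values lay above all cecal values, but duodenal tumor 2 and cecal tumor 3 were nearly equal. The other, 1449224_at, had 2.3, 31.9 and 14.9 in duodenal against 8.0, 15.0 and 27.1 in cecal tumors, with full overlap. With no filter on dim probe sets the brighter one had an unadjusted p of 0.0346 and failed the test (limma adjusted p = 0.224), the lowest adjusted p among the 10 dim member probe sets. With 3 tumors against 3, an exact two-sided permutation test of a single value cannot go below p = 0.1, so complete separation carries no more than that.

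Il25 encodes the tuft cell cytokine that starts the type 2 response. Its probe set had 4.1, 2.3 and 8.0 in duodenal against 4.4, 3.0 and 3.0 in cecal tumors. All 6 values were far below the dim level and the groups overlapped, so its transcript was not detectable by this probe set at either site.

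Across the 12 member probe sets, 2 (Avil and the brighter Trpm5 probe set) had all duodenal values above all cecal values and 0 had the reverse. That is 16.7%, beside 12.8% of all 22626 probe sets other than controls separated in the same direction and 11.4% in the opposite one, so the share was near the background. Duodenal tumor 3 had the highest of the 6 values for 7 of the 12 probe sets, and duodenal tumor 2 the lowest for 5. These counts have no share over all probe sets beside them. They rank mostly dim values, and 6 of the 12 probe sets are of Dclk1, so they are not read as a trait of those tumors. Among the 10 dim probe sets, the mean was higher in duodenal tumors for 5 and in cecal tumors for 5.

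**Figure D2:**
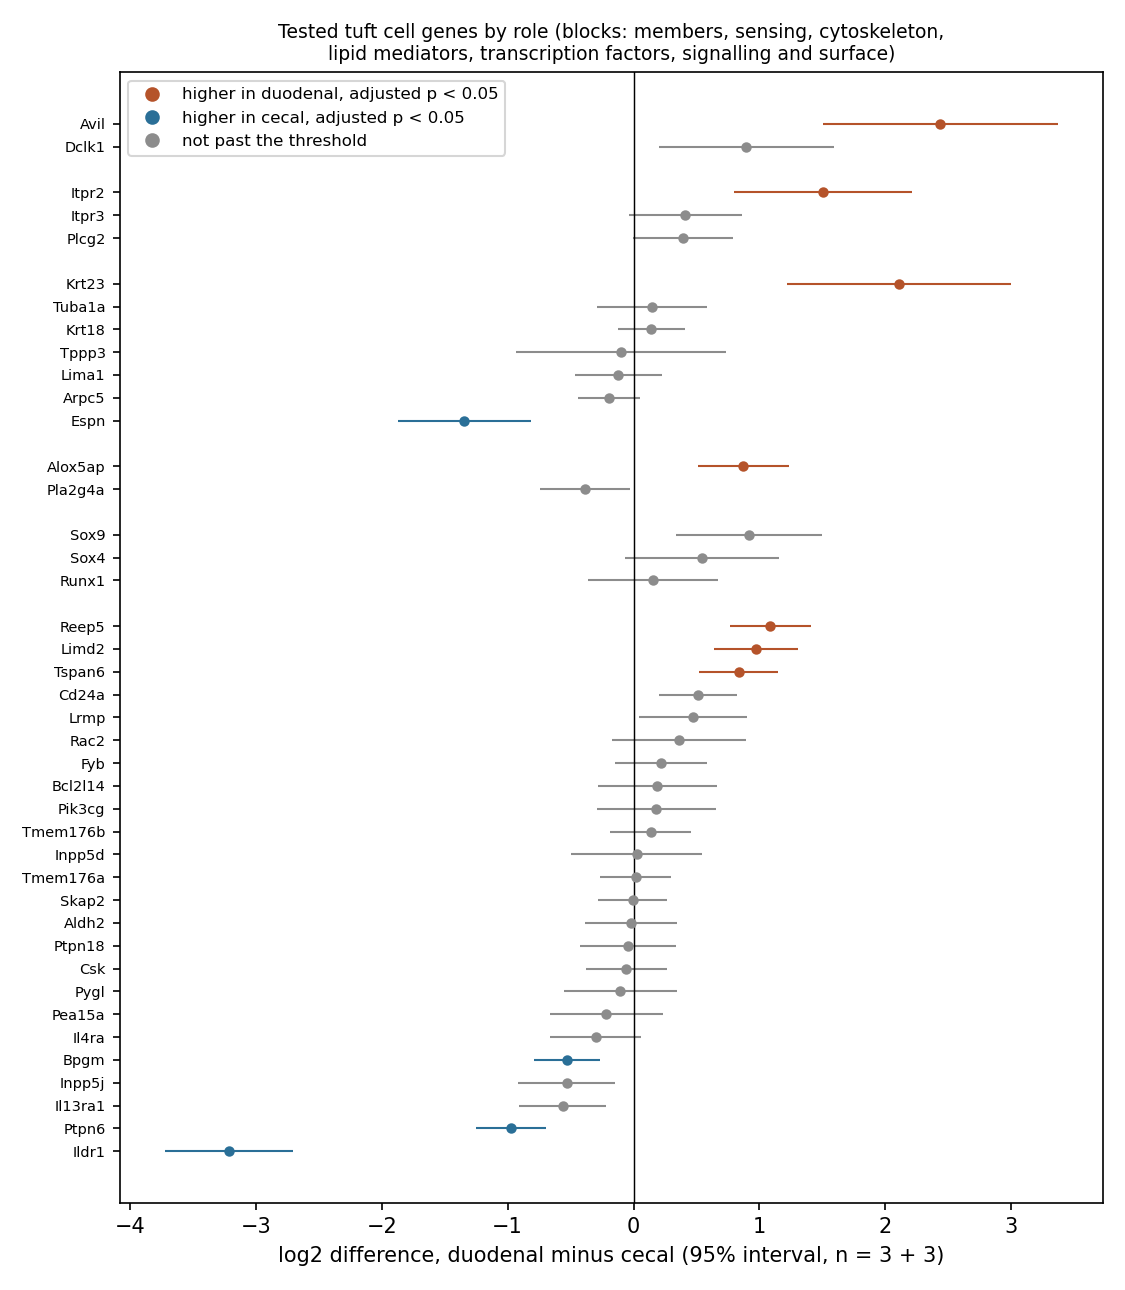
Log2 difference between duodenal and cecal tumors (duodenal minus cecal, with unadjusted 95% intervals, n = 3 each) for the tested members and 39 further tuft cell genes, in blocks by role. Avil and 6 further genes passed as higher in duodenal tumors and 4 as lower, with Ildr1 at -3.22 the farthest below 0. For Itpr2, 1 of the 6, the direction follows from the filter.

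A wider set of 77 genes known from tuft cells, not counting the members, was read in 5 lists by role. Of these, 61 were on the array, 18 were dim in all tumors and 39 were tested. In duodenal tumors 6 of the 39 were higher (15.4%) and 4 lower (10.3%), beside 4.73% and 5.7% (10.4% in all) of all 8125 tested genes, each gene taken by its brightest probe set. For 1 of the 6, Itpr2, the direction follows from the filter, since all cecal tumors were dim for it. The median log2 difference of the 39 was 0.14, beside 0.05 over all tested genes. Many of these genes are also made by leukocytes or by other epithelial cells, and without those that mark leukocytes the counts were 4 higher and 3 lower of 27, with a median of -0.02.

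In the sensing cascade, 7 of the 10 genes on the array were dim in all tumors. These included the G protein subunits Gnb3 and Gng13, the phospholipase Plcb2, the taste receptor subunits Tas1r1 and Tas1r3, and the succinate receptor Sucnr1. Itpr2, a calcium release channel, had 181.3, 150.3 and 363.0 in duodenal against 54.1, 73.2 and 71.1 in cecal tumors. Its duodenal level was at least 2.23-fold higher (limma adjusted p = 0.0199), a direction that follows from the filter, since all cecal tumors were dim. Its call was lost without cecal tumor 1 (adjusted p = 0.0824) or cecal tumor 2 (0.0575), and of 2 further tested Itpr2 probe sets 1 passed. Itpr3, the release channel of the taste cascade, had a log2 difference of 0.41 (adjusted p = 0.255), and Plcg2 one of 0.39 (adjusted p = 0.218).

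Cytoskeletal genes moved in both directions. Krt23, a keratin, had 1124.7, 2499.3 and 1872.7 in duodenal against 213.5, 554.4 and 499.0 in cecal tumors, and the groups did not overlap. It was higher in duodenal tumors by a log2 difference of 2.11 ± 0.39 (SE; limma adjusted p = 0.013), with cecal tumor 1 lowest, as for Avil. Espn, an actin-bundling protein of microvilli, had 83.8, 112.7 and 78.6 in duodenal against 336.9, 249.4 and 196.1 in cecal tumors. It was lower in duodenal tumors (log2 difference -1.34 ± 0.23 SE, adjusted p = 0.00968). The other 5 tested genes did not pass, among them Krt18, a keratin of simple epithelia, at 0.14, Arpc5 at -0.20 and Lima1 at -0.12.

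Alox5 itself was not measured here, and 4 genes of the list of lipid mediator enzymes were on the array. Alox5ap, which presents arachidonic acid to the lipoxygenase encoded by Alox5, had 394.7, 315.0 and 342.2 in duodenal against 161.4, 188.9 and 202.1 in cecal tumors. The groups did not overlap, and the log2 difference was 0.87 ± 0.16 (SE; limma adjusted p = 0.0118). Ltc4s, the leukotriene C4 synthase, had 127.5, 93.1 and 164.0 in duodenal against 67.5, 72.1 and 76.2 in cecal tumors. Its groups did not overlap either, but with only 2 arrays above the dim level it was not tested. Hpgds, a prostaglandin D synthase, was dim in all tumors, and Pla2g4a, the phospholipase that frees arachidonic acid, had a log2 difference of -0.38 (adjusted p = 0.184).

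Leukocytes also make Alox5ap and Ltc4s, and their markers were compared in the same tumors. The 5 pan-leukocyte genes summed to 1390.5 to 1780.8 in duodenal against 1649.9 to 2042.9 in cecal tumors. Ptprc, the leukocyte antigen CD45, had 399.1, 338.8 and 317.2 in duodenal against 532.5, 413.3 and 495.5 in cecal tumors (log2 difference -0.43, limma adjusted p = 0.134), and Cd52 and Cd53 had log2 differences of -0.16 and -0.13. Macrophage and neutrophil genes summed to 6253 to 6892 in duodenal against 7343 to 10106 in cecal tumors, with Csf3r and Itgam dim on all arrays. Lyz2 was the brightest of the list (log2 difference -0.33, limma adjusted p = 0.213). S100a8 and S100a9 were highest in cecal tumor 3, at 825.3 and 656.7. Csf1r, Mpeg1, Adgre1 and Cd68 had log2 differences of -0.08, -0.09, -0.06 and 0.14. Mast cell genes summed to 1923.5, 9210.6 and 2312.6 in duodenal against 6570.3, 6595.6 and 2164.4 in cecal tumors, led by the proteases Mcpt1 and Mcpt2 and by Cpa3. None of the 18 tested genes of these lists passed limma's test, and 2 had an unadjusted p below 0.05; without duodenal tumor 2, Mcpt1 passed as lower in duodenal tumors (adjusted p = 0.0153). The part of leukocytes in the Alox5ap and Ltc4s values was not tested.

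For the genes that Gfi1b shares with blood precursors, Gata1, Gp9, Alas2 and Hba-a1 were dim on all arrays by the probe set read. Probe sets naming several genes were not used and none named Hbb-b1 alone, so red cell transcripts were only partly covered. The platelet chemokine gene Pf4 was lower in duodenal tumors (log2 difference -0.80, limma adjusted p = 0.0478), and the list summed to 458.9 to 584.5 in duodenal against 727.4 to 912.4 in cecal tumors. Pf4 no longer passed with no filter (0.0756), with no intensity trend (0.0548), or when 1 array was left out (0.0849 to 0.166), except for duodenal tumor 3. Lymphocyte genes summed to 262.4 to 400.5 and 326.0 to 431.2 in the same order, and 0 of 6 reached the level for testing. Epithelial genes, with Krt8, Krt19 and Epcam the brightest, summed to 42208 to 48041 in duodenal against 51481 to 56961 in cecal tumors. Of 6 tested genes, Vil1, which encodes the microvillar protein villin, passed as lower in duodenal tumors (log2 difference -0.58, limma adjusted p = 0.0264). Its call was lost with no intensity trend (0.0516) and without any 1 array but duodenal tumor 3 (0.0549 to 0.1001). Without duodenal tumor 3, Krt8 and Epcam passed as lower in duodenal tumors (limma adjusted p = 0.0336 and 0.0435). Epcam also passed with quantile normalization (limma adjusted p = 0.0409) and array weights (0.0385). The part of epithelial content in the Avil difference was not tested.

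**Figure D3:**
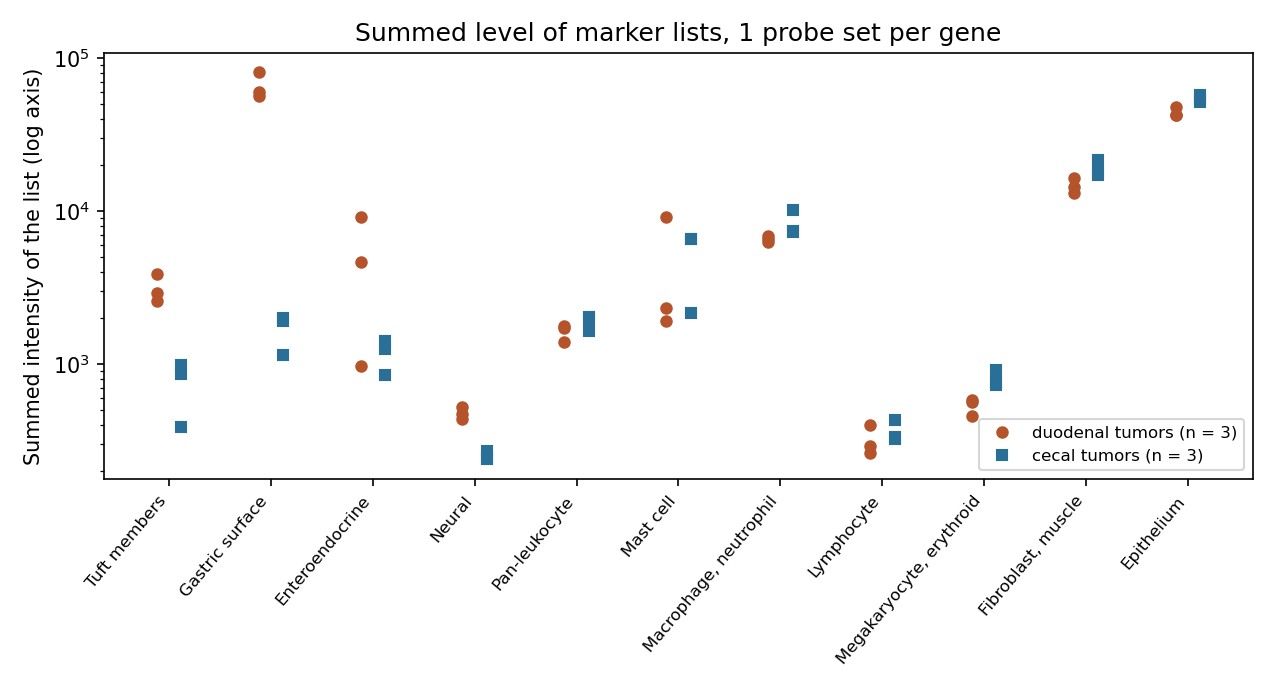
Summed intensity (log axis) of the members and of 10 marker lists in the 3 duodenal (circles) and 3 cecal (squares) tumors, with each gene taken by its brightest probe set. The members' sum, most of it from Avil, separates the sites upward in duodenal tumors. So do the gastric surface and neural sums, the latter low on every array. The macrophage and neutrophil, megakaryocyte and erythroid, fibroblast and muscle, and epithelium sums separate them downward. Most of the macrophage and neutrophil sum is from Lyz2, and Pf4 is the largest part of the megakaryocyte and erythroid sum. A sum is weighted to its brightest probe sets and does not measure cell content. The pan-leukocyte, mast cell, lymphocyte and enteroendocrine sums overlap.

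Among the other transcription factors, none of the 3 tested passed limma's test, and 1 had an unadjusted p below 0.05. Sox9, a progenitor and Wnt target factor also present in tuft cells, had 732.0, 837.2 and 1091.3 in duodenal against 309.1, 512.9 and 594.5 in cecal tumors. Its groups did not overlap and its log2 difference was 0.92 ± 0.25 (SE; limma adjusted p = 0.0608, or 0.0101 with the replicate block and 0.0411 without cecal tumor 3), while a second probe set, at 0.74, passed (adjusted p = 0.0275). Sox4 had a log2 difference of 0.54 (adjusted p = 0.269, or 0.0306 without cecal tumor 3), and Runx1 one of 0.15. Spib exceeded the dim level in duodenal tumors 1 and 3 alone, at 137.3 and 101.1, and Hmx2 and Hmx3 were dim in all tumors.

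Of 24 tested signalling and surface genes, 3 were higher and 3 lower in duodenal tumors. Those higher were Reep5, which shapes the endoplasmic reticulum (log2 difference 1.09, limma adjusted p = 0.00261), Limd2 (0.97, adjusted p = 0.00566) and the tetraspanin gene Tspan6 (0.84, adjusted p = 0.00832). Those lower were Ildr1, a tricellular junction protein, at -3.22 (adjusted p = 0.000155), the phosphatase gene Ptpn6 at -0.97 (adjusted p = 0.00234), and the erythrocyte mutase gene Bpgm at -0.53 (adjusted p = 0.0258). The Bpgm call was lost without any single array other than duodenal tumor 2 (adjusted p = 0.0628 to 0.0844). Ildr1 had 109.8, 103.2 and 69.2 in duodenal against 1198.4, 1073.7 and 758.2 in cecal tumors. For Limd2 and Ptpn6 a second probe set did not pass (adjusted p = 0.195 and 0.391), nor did either of 2 further Bpgm probe sets (0.0853 and 0.0608).

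Close to the threshold were Cd24a, a surface glycoprotein (log2 difference 0.51, limma adjusted p = 0.0521, or 0.0063 with the replicate block, 0.00874 with quantile normalization, 0.02 with array weights, 0.0493 without duodenal tumor 2 and 0.0349 without cecal tumor 3), Il13ra1, a receptor chain for type 2 cytokines (-0.56, adjusted p = 0.0553, or 0.0419 with the block and 0.0486 with median centring), and Inpp5j (-0.53, adjusted p = 0.0952). Further probe sets of Cd24a and of Il13ra1 passed in the same directions, 2 of 2 and 2 of 3. Siglecf, Matk, Vav1, Bmx, Ly6g6d, Gprc5c and Tslp were dim in all tumors.

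Most genes of the type 2 cytokine list gave little signal at either site, and none of the list passed limma's test (1 had an unadjusted p below 0.05). Of 12 on the array, 10 were dim in all tumors, among them Il4, Il5, Il9 and Il13, the cytokines of the tuft cell circuit, and Epx and Prg2, granule genes of eosinophils. The 2 tested genes were Stat6, the factor downstream of the type 2 receptors, with a log2 difference of -0.06 (limma adjusted p = 0.865), and Il33, an epithelial and stromal alarmin. Il33 had 898.3, 391.4 and 809.0 in duodenal against 322.1, 230.0 and 363.6 in cecal tumors. The groups did not overlap, and its log2 difference of 1.09 ± 0.31 (SE) did not pass (adjusted p = 0.068, or 0.00801 with the replicate block, 0.0121 with array weights and 0.00612 without duodenal tumor 2).

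The genes with patterns most like those of the 2 tested members were ranked by the root mean square distance between log2 values over the 6 arrays, each gene centred on its mean. The 8128 genes ranked had at least 1 tested probe set and were taken by the brightest of those, so genes whose brightest probe set was not tested were included here. Nearest to Avil were Gjb1, a gap junction protein, at 0.25 log2 units, and the secreted chaperone gene Clu at 0.29. The matrix protein gene Npnt followed at 0.30, and the transcription factor gene Gata5 and the surface protein gene Ly6d both at 0.32. All 5 were lowest in cecal tumor 1, as Avil was, and Gjb1 had 2259.7, 1931.9 and 2661.7 in duodenal against 213.7, 447.4 and 422.9 in cecal tumors. Nearest to Dclk1 were Il33 at 0.14, Fkbp9, an isomerase of the endoplasmic reticulum, at 0.15, Ergic1, of the early secretory pathway, at 0.15, the inducible heat shock gene Hspa1a at 0.16 and the phospholipase gene Plaat3 at 0.17. In all 5 of these, duodenal tumor 2 was the lowest duodenal tumor and cecal tumor 2 the lowest of all, as for Dclk1; the ranking itself selects for such a likeness. Of these 5, only Ergic1 passed (limma adjusted p = 0.0358), a call that 3 further Ergic1 probe sets did not share. The 5 genes nearest to Avil passed, which their choice by likeness to Avil makes likely and which is no separate result. The calls of Ergic1 and Clu were lost without single arrays, Ergic1 without duodenal tumor 1 or 3 or cecal tumor 1 or 2 (adjusted p = 0.112 to 0.127) or with no filter (0.0543), and Clu without duodenal tumor 3 (0.0509). Without duodenal tumor 2, or with the replicate block, Fkbp9, Hspa1a and Plaat3 passed as well (adjusted p = 0.00457 to 0.0374).

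**Figure D4:**
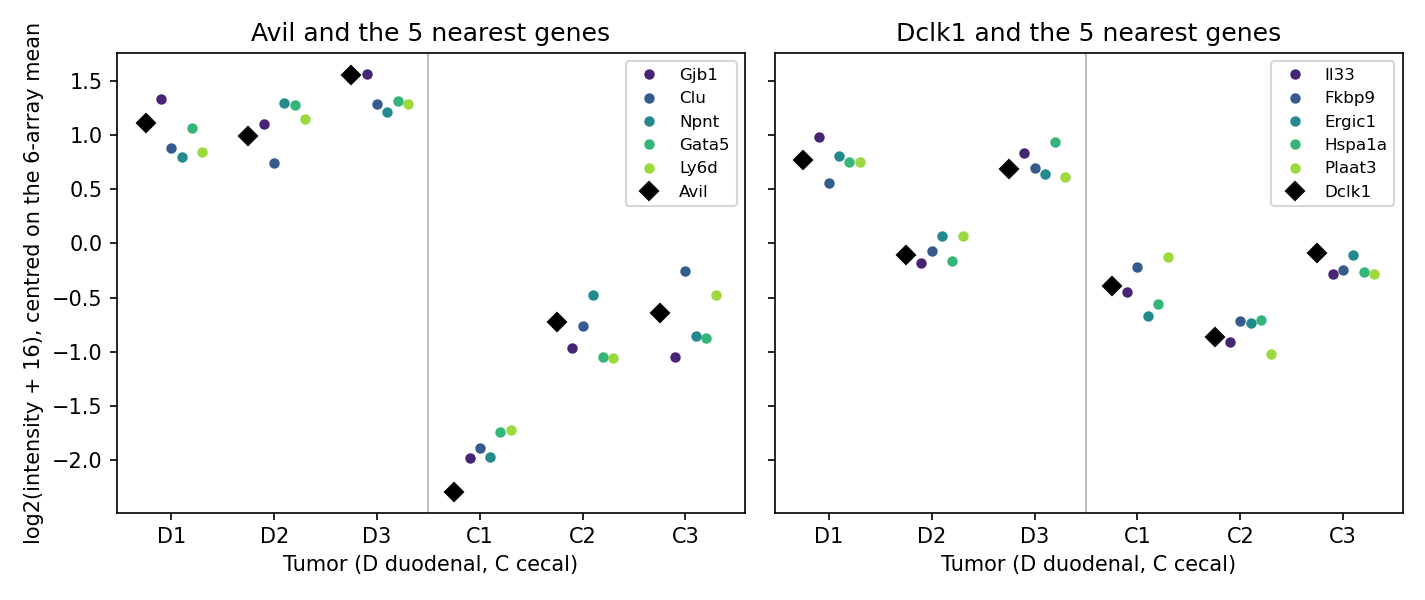
log2(intensity + 16), centred on each gene's mean over the 6 arrays, for Avil (left, diamonds) and Dclk1 (right, diamonds) and their 5 nearest genes (circles) in duodenal tumors (D1 to D3) and cecal tumors (C1 to C3). The Avil set is lowest in cecal tumor 1, and the Dclk1 set is lower in duodenal tumor 2 than in duodenal tumors 1 and 3.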

How the data were processed

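The authors deposited linear intensities, 1 per probe set, for which the submitters' processing notes name MAS5. The sources used here give neither its version and scaling target nor its detection calls, and nothing was rescaled. Median intensities of 164.6 to 181.8 were found over the 6 arrays, and the number of arrays limits precision. Sample titles gave the groups and replicate numbers. Per the labels' protocols, the tumors came from 6 mice.

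Of 22690 probe sets, 64 controls were left out. Intensities were tested as log2(intensity + 16), which understates changes of dim genes, by two-sided limma 3.58.1 tests (lmFit and trended eBayes, R 4.3.3), with Benjamini-Hochberg adjustment over all 13866 tested probe sets and a threshold of 0.05. The procedure was tested on simulated data. Where a group was dim on all its arrays, the fold is a lower bound, from the brighter group's mean log2 intensity and the 40th percentiles of the dim arrays.

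Named genes were the members, every called gene and up to 3 more of smallest p in each tuft or type 2 list, the 3 brightest of each marker list and the 5 nearest patterns; genes outside this rule, and second probe sets, were named after their values were seen. The members and lists were chosen with earlier results of these data known. Of 24 named genes with 40 other tested probe sets, 3 probe sets differed in sign from the one reported and 15 in whether they passed.

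Replicate numbers recur in both groups. Same-numbered tumors had deviations from their group means that correlated at 0.274, 0.299 and 0.203, and other pairs at -0.20 to -0.03. Deviations cancel within a group, so positive values for same-numbered pairs force negative ones among the other pairs. A fit with the number as a block was run because of this pairing. It comes from the data alone and does not pair tumors of the same mouse. Other alternatives were the offset, filter, normalization, variance model, array weights, probe set choice, list membership and leaving out each array. Sequences are from RefSeq, GRCm38.p6. Figures were drawn with Python 3.11.15 and matplotlib 3.10.9.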

Additional observations from a re-analysis of the deposited data

How the results depend on the processing

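One member probe set passed in the main fit and under every alternative but 3. With the replicate number as a block, and with array weights, 2 passed, Dclk1 1450863_a_at beside Avil, and leaving out 1 array in turn gave 1 to 2, with 2 without duodenal tumor 2. The count of wider tuft genes ran from 8 to 12 of 39 when single arrays were left out, was 13 with the replicate block and 13 when a gene's probe sets were averaged, and was 7 without genes that also mark leukocytes. Over all probe sets, 1290 passed, or 1939 with array weights, 1571 with the replicate block, and 658 to 1194 without single arrays (658 without cecal tumor 1, 700 without cecal tumor 2, 816 without duodenal tumor 1 and 856 without duodenal tumor 3). Of 895 log2 differences of named genes under the alternatives, 820 kept their direction and side of the threshold, 32 passed where the main value had not, 28 no longer passed, and 15 changed sign, none of a gene that had passed. With array weights the sign changed for Stat6 (0.038) and Mcpt2 (-0.067). Without single arrays Stat6 ran from -0.16 to 0.078, Mcpt2 from -0.15 to 0.80, Cpa3 from -0.69 to 0.50, Csf1r from -0.16 to 0.0077, Cd52 from -0.33 to 0.0082 and Acta2 from -0.029 to 0.24. The cause of these changes was not tested. Dim signal limits the members: 10 of the 12 probe sets were left out by the filter, and with no filter none of these 10 passed (lowest limma adjusted p = 0.224).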
